A study of Homo sapiens with 6 samples.

Results

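The genes described here were 3 colony-stimulating factors (CSF1, CSF2 and CSF3), 6 CXC chemokines that attract neutrophils (CXCL1, CXCL2, CXCL3, CXCL5, CXCL6 and CXCL8) and the cytokine IL6. They were chosen by name, 10 of the 21776 genes in the count table, with their difference between the conditions already known. The comparison of hypoxia with normoxia is therefore given for them as a description, and nothing is read from their test calls. All 10 passed the filter on low counts. RNA was sequenced from SCC25, a human oral squamous cell carcinoma line of WT genotype, in 6 libraries. The 3 hypoxia libraries came from cells kept for 12 h in 1% O2 and 5% CO2 with nitrogen, and the 3 normoxia libraries from cells kept for 12 h in air with 5% CO2. Both conditions used the same medium with serum, and the labels name no treatment other than the gas mixture. The libraries are of 1 cell line in culture, and nothing in the labels says whether the replicates were separate cultures, so the errors measure the spread between these libraries. Total counts were 37278703, 29637189 and 29981208 in normoxia and 30186813, 36076088 and 32272716 in hypoxia.

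Colony-stimulating factors drive bone marrow progenitors to divide and mature: CSF3 (G-CSF) acts on neutrophils, CSF1 (M-CSF) on monocytes and macrophages, and CSF2 (GM-CSF) on both. The chemokines CXCL1, CXCL2, CXCL3, CXCL5, CXCL6 and CXCL8 (interleukin-8) bind CXCR1 or CXCR2 on neutrophils and draw them out of the blood into tissue, and their genes lie together in a cluster on chromosome 4. IL6 binds IL6R and the shared signal chain IL6ST (gp130) and drives the acute-phase response. Epithelial and carcinoma cells make many of these proteins when IL-1, TNF or IL-17 activates NF-kB, and their short-lived mRNAs are cleared by proteins that bind AU-rich elements.

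RefSeq promoter sequence, from 250 bases before to 50 bases after the gene start, was matched for 8 of the 10 genes, all but CSF1 and CSF3. The 10-letter NF-kB consensus was present in 6 of these 8 promoters (CXCL1, CXCL2, CXCL3, CXCL5, CXCL6 and IL6), and in 5.72% of the 27305 promoters of the same length. In each of the 5 CXCL promoters the match read GGGAATTTCC, with an overlapping match on the other strand 1 base further on, and together they form the 11 capitals below. Windows of 70 bases, with 30 on each side of the forward match, are shown 5′ to 3′ on the strand of the gene because CXCL6, whose level differed little between the conditions, holds the same letters as the 4 genes that were lower in hypoxia. They lie on GRCh38.p14 at chr4:73869284-73869353 (plus strand), chr4:74099234-74099303 (minus), chr4:74038729-74038798 (minus), chr4:73998729-73998798 (minus) and chr4:73836558-73836627 (plus), upstream of each gene start.
CXCL1: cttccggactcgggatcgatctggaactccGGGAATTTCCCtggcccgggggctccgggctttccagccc
CXCL2: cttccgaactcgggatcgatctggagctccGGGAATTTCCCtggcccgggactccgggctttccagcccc
CXCL3: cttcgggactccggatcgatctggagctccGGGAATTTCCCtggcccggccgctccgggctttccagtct
CXCL5: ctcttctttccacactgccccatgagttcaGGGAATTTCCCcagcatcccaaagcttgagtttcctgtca
CXCL6: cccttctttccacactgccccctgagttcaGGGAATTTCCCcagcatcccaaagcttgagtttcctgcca

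Compared base by base without gaps, the CXCL5 and CXCL6 windows shared 67 of 70 bases (95.7%) and the CXCL1 and CXCL3 windows 63 of 70 (90%). CXCL1 and CXCL6 shared 31 of 70 (44.3%), of which the 11 capitals are a part. The forward match began at position -79 in CXCL1 and CXCL3, -78 in CXCL2, -91 in CXCL5 and -90 in CXCL6, counted back from the gene start. In IL6 it read GGGATTTTCC from -73 to -64. The IL6 promoter (chr7:22726950-22727249, plus strand) and the CXCL8 promoter (chr4:73740319-73740618, plus strand) are shown whole, with the NF-kB consensus in capitals in IL6 and the AP-1 letters TGANTCA in capitals in CXCL8.
IL6: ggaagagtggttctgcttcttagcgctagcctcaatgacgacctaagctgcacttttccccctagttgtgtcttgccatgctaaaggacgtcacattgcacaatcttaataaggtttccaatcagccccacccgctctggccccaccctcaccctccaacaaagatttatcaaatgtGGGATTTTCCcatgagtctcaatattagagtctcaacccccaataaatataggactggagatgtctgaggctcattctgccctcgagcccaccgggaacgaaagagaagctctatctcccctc
CXCL8: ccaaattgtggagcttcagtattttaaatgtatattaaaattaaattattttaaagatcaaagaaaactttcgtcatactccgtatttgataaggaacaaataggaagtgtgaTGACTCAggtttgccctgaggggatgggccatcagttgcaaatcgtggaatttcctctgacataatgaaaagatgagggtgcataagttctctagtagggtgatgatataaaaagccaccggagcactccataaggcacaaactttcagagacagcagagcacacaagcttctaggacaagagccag

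TGANTCA was found in CXCL8 alone among the 8 promoters, from -137 to -131, and in 7.76% of all promoters. The C/EBP letters TTGCNNAA were found in CXCL2 and IL6 and in 10.6% of all promoters. Of the letters at the core of hypoxia response elements, ACGTG was in none of the 8 and in 21.6% of all promoters, while GCGTG was in CXCL5 only and in 36.3% of all promoters. Both strands were searched throughout. A match is a stretch of letters and not a measured binding site, and the lack of one in CSF2 or CXCL8 says only that the consensus letters are not in this window.

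The labels were checked with 2 genes that are known to respond to low oxygen. VEGFA, an angiogenic growth factor, rose from 184 ± 18.7 to 1278 ± 65.7 CPM (counts scaled to a common library total; mean ± SD, n = 3 libraries), with an adjusted p of 4.25e-15 in edgeR's quasi-likelihood test. CA9, a carbonic anhydrase, rose from 42.4 ± 22.0 to 277 ± 15.4 CPM (edgeR adjusted p = 2.03e-09). The totals were scaled by TMM, which corrects them for composition. Among 7 squamous markers, KRT5, KRT17, TP63, SFN, DSG3 and CDH1 passed the filter, whereas KRT14, a defining keratin of basal squamous cells, had 1 count in all 6 libraries together. The summed level of the 7 was 576, 582 and 639 CPM in normoxia and 813, 794 and 813 CPM in hypoxia, with the largest part from SFN in normoxia and from CDH1 in hypoxia. Of the markers of leukocytes, which make and answer these cytokines in tissue, PTPRC, CD3E and LYZ had at most 2 counts in any library. ITGAM, an integrin of myeloid cells, had 2, 3 and 2 counts in normoxia and 6, 15 and 10 counts in hypoxia, with no overlap, and did not pass the filter. The summed level of the 6 leukocyte markers analysed was 33.7, 33.1 and 35.9 CPM in normoxia and 33.8, 37.8 and 39.9 CPM in hypoxia, most of it from CD68, a lysosomal protein that other cells also carry, and CD14 rose within it from 1.07 ± 0.481 to 5.83 ± 0.445 CPM (edgeR adjusted p = 7.27e-08). The 6 fibroblast markers summed to 3.68, 2.94 and 5.27 CPM in normoxia and 21.3, 18.2 and 16.8 CPM in hypoxia, most of it from COL1A1. The 4 endothelial markers summed to at most 0.744 CPM in normoxia and 1.57 CPM in hypoxia, most of it from CDH5. The part of these markers in the results below was not tested. In bulk RNA, fewer producing cells and less RNA per cell cannot be told apart.

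Hypoxia libraries held lower levels of 9 of the 10 genes, with the largest differences for CSF3, CXCL2 and IL6, and CXCL6 was the exception. The median log2-fold change was -1.99 over the 10 genes and 0.02 over the 14255 genes tested. The values of the 2 conditions did not overlap for 9 of the 10 genes, and for 80.5% of all genes tested. An adjusted p under 0.05 was reached by 9 of the 10 in either direction against 77.8% of all genes tested, by 9 in the lower direction against 38.5%, and by 8 with a log2-fold change of -1 or below against 10.5%. None of the 10 was higher by 1 or more, as 19.9% of all genes tested were. Since the genes were picked with this contrast known, nothing is read from these counts.

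**Figure D1:**
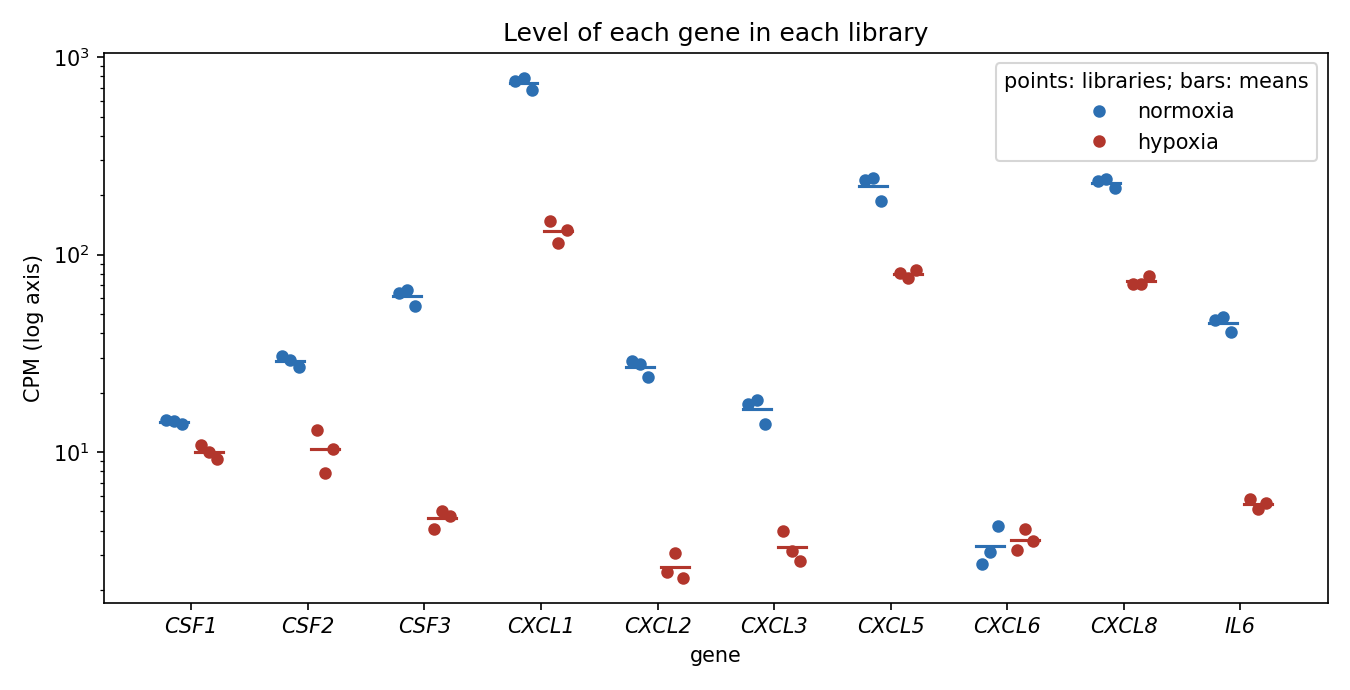
TMM-scaled CPM (log axis) of the 10 genes, with 1 point per library and a bar at the mean of the 3 normoxia (blue) and 3 hypoxia (red) libraries. The red points lie below the blue ones for 9 genes and are interspersed with them for CXCL6.

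CSF3, the neutrophil growth factor, stood at 63.5, 65.9 and 54.8 CPM in the normoxia libraries and at 4.09, 5.03 and 4.75 CPM in the hypoxia libraries. The conditions were far apart, and the lowest hypoxia library still held 125 reads, so that the level could be measured in all 6 libraries. The log2-fold change was -3.72 (SE 0.099), a 13.2-fold lower level, and it was the 13th lowest of the 14255 genes tested.

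CSF2, which supports both granulocytes and macrophages, stood at 30.5, 29.4 and 26.8 CPM in normoxia and at 12.9, 7.82 and 10.4 CPM in hypoxia. Its hypoxia libraries were the least alike of any of the 10 genes, with a coefficient of variation of 24.5%, yet all lay below every normoxia library. The log2-fold change was -1.49 (SE 0.13), a 2.8-fold lower level. CSF1, the macrophage growth factor, stood at 14.5, 14.4 and 13.8 CPM in normoxia and at 10.8, 9.97 and 9.25 CPM in hypoxia. Here too the conditions did not overlap, but the gap was small, with a log2-fold change of -0.50 (SE 0.10), a 1.42-fold lower level. The 3 colony-stimulating factors thus ranged from a 1.42-fold to a 13.2-fold difference.

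CXCL1 (GRO-alpha), the most abundant of the chemokines per length, stood at 761, 784 and 684 CPM in normoxia and at 148, 115 and 133 CPM in hypoxia. Its log2-fold change was -2.50 (SE 0.080), a 5.64-fold lower level. CXCL2, a close paralog, stood at 28.8, 27.9 and 24.1 CPM in normoxia and at 2.46, 3.09 and 2.31 CPM in hypoxia. Its hypoxia libraries held 75, 115 and 75 reads, and its log2-fold change of -3.35 (SE 0.13), a 10.2-fold lower level, was the largest decrease of the 6 chemokines. CXCL3, the other close paralog, stood at 17.5, 18.4 and 13.9 CPM in normoxia and at 4.0, 3.15 and 2.8 CPM in hypoxia. This was a log2-fold change of -2.33 (SE 0.15), a 5.02-fold lower level. The 3 paralogs are near-identical in parts, and of all 50-base windows in their GENCODE transcripts 4.81% in CXCL1, 12.5% in CXCL2 and 6.01% in CXCL3 occur in another of the 3, so that some reads could have been assigned to the wrong one.

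CXCL8, the prototype neutrophil chemokine, stood at 235, 241 and 218 CPM in normoxia and at 70.8, 71.2 and 78.1 CPM in hypoxia. With a log2-fold change of -1.66 (SE 0.059), a 3.15-fold lower level, it varied little within each condition (coefficient of variation 5.02% in normoxia and 5.63% in hypoxia). CXCL5 (ENA-78) stood at 238, 243 and 186 CPM in normoxia and at 81.1, 75.7 and 83.3 CPM in hypoxia, a log2-fold change of -1.48 (SE 0.081) and a 2.78-fold lower level. One normoxia library, replicate 3, lay apart from the other two for CXCL5, and without it the log2-fold change was -1.60.

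CXCL6 (GCP-2), the nearest relative of CXCL5 in its promoter window above, did not follow the others. It stood at 2.71, 3.11 and 4.23 CPM in normoxia and at 3.18, 4.06 and 3.54 CPM in hypoxia, from 89 to 151 reads per library. The highest and the lowest values both belonged to normoxia, so the hypoxia values lay inside the normoxia range. The log2-fold change was 0.11 (SE 0.20), and it ran from -0.04 to 0.30 when each library was left out in turn. Its exons share 94 bases with PPBPP1, a pseudogene on the same strand that was not analysed here, which leaves reads in that stretch uncertain.

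IL6 stood at 46.4, 48.5 and 40.6 CPM in normoxia and at 5.76, 5.16 and 5.52 CPM in hypoxia. Both conditions were tight, with coefficients of variation of 9.09% in normoxia and 5.52% in hypoxia, and did not overlap. The log2-fold change was -3.04 (SE 0.096), an 8.25-fold lower level. The exons of IL6 overlap those of STEAP1B over 46 bases and those of AC073072.1 over 428 bases, both on the opposite strand, and whether the counting used the strand is not given in the sources used here. STEAP1B had at most 25 reads in any library, against at least 176 for IL6, and AC073072.1 was not analysed here.

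Among the normoxia libraries, replicate 3 was the lowest for 9 of the 10 genes and replicate 2 the highest for 6. In hypoxia no library was lowest for more than 4 of the 10. Leaving out any single library kept the 9 lower genes lower, with log2-fold changes of -3.82 to -3.65 for CSF3, -3.50 to -3.27 for CXCL2 and -1.68 to -1.32 for CSF2.

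Levels of different genes were compared per length, on the deposited FPKM (fragments per unit of gene length and of library total). In normoxia CXCL1 led with 622 ± 41.2 FPKM (mean ± SD, n = 3), followed by CXCL8 with 110.5 ± 5.04 and CXCL5 with 89.7 ± 12.4. CSF3 (39.9 ± 3.61) and CSF2 (36.1 ± 2.55) overlapped, as did CXCL3 (15.2) and IL6 (14.5), with CXCL2 (23.7) between the pairs and CSF1 (2.91) and CXCL6 (2.14) last. In hypoxia, with genes ordered by their median as before, the leading 4 were CXCL1 (114 ± 13.7), CXCL8 (36.2), CXCL5 (33.4) and CSF2 (13.4). From CSF3 (3.11) through CXCL3 (3.13), CXCL6 (2.38) and CXCL2 (2.39) to CSF1 (2.12) each gene overlapped its neighbour in the order, and IL6 (1.82) came last.

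CSF3 and CSF2 were at about the same level in normoxia, where their ranges overlapped, and CSF2 was above CSF3 in hypoxia. CSF1 was below both in each condition. The ratio of CSF3 to CSF2, G-CSF to GM-CSF, was 1.08, 1.17 and 1.06 in the normoxia libraries and 0.165, 0.335 and 0.237 in the hypoxia libraries. CSF3 mRNA was thus close to CSF2 mRNA in normoxia and below it in every hypoxia library. The small difference in normoxia depends on the gene lengths behind the FPKM, which were not checked. The ratio of CXCL2 to CXCL6 went from 14.6, 12.3 and 7.85 in normoxia to 1.07, 1.05 and 0.899 in hypoxia, so that both chemokines were at about the same level in hypoxia. CXCL2 exceeded CXCL3 in normoxia, with a ratio of 1.57 ± 0.11. In hypoxia the ratio was 0.778 ± 0.18 and below 1 in all 3 libraries, but the ranges of both genes overlapped. The hypoxia libraries held 75 to 115 reads of CXCL2 and 91 to 122 of CXCL3, against at least 4259 of CXCL1. Reads assigned to the wrong paralog could therefore have changed this ratio, which was not tested.

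The 6 chemokines summed to 902, 897 and 792 FPKM in normoxia and to 204, 177 and 193 FPKM in hypoxia. CXCL1 made up 72.1% ± 0.46 of the sum in normoxia and 59.4% ± 2.9 in hypoxia, with no overlap between the libraries. CXCL8 took 12.8% ± 0.36 and then 19.0% ± 1.7, and CXCL5 10.4% ± 0.71 and then 17.5% ± 0.88. The share of CXCL6 was 0.252% ± 0.079 in normoxia and 1.25% ± 0.26 in hypoxia, while its own level differed little.

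Of 9 receptors for these ligands, 3 passed the filter. CSF1R, the receptor of CSF1, rose from 1.4, 0.664 and 1.25 CPM in normoxia to 6.26, 6.69 and 6.04 CPM in hypoxia (log2-fold change 2.49, SE 0.23; edgeR adjusted p = 1.91e-08), while its ligand was lower. IL6R fell from 14.7 ± 1.36 to 6.91 ± 1.06 CPM (log2-fold change -1.09, SE 0.13; edgeR adjusted p = 4.47e-07). IL6ST fell from 203 ± 8.63 to 179.7 ± 9.01 CPM (log2-fold change -0.17, SE 0.055; edgeR adjusted p = 0.00888), which became -0.10 and no longer passed when genes under 10 counts in any library were left out, a filter that moved the median of all genes by 0.077. The neutrophil receptors were barely detected in these cells, with at most 5 counts of CXCR2 and 2 counts of CSF3R in any library. CSF2RA was listed at 0, 19 and 9 counts in normoxia and 0, 2 and 0 in hypoxia, and CXCR1, CSF2RB and ACKR1 were not analysed here.

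Related cytokines went both ways. Of 16 growth factors of blood cells and members of the IL-6 family, 8 passed the filter, of which 5 rose and 3 fell, with a median log2-fold change of 1.38, where 77.8% of all genes tested passed in either direction with a median of 0.02. CTF1 (cardiotrophin-1) rose from 0.591 ± 0.181 to 3.59 ± 0.775 CPM (log2-fold change 2.57, edgeR adjusted p = 3.26e-07) and IL11 from 1.17 ± 0.198 to 5.47 ± 0.551 CPM (2.23, adjusted p = 2.89e-08). EBI3, a subunit of IL-27 and IL-35, also rose (1.87, and 2.57 without normoxia replicate 3), as did FLT3LG, a growth factor of dendritic cell progenitors (0.88). LIF, which keeps stem cells undifferentiated, fell from 235, 235 and 219.8 CPM to 123, 123 and 125 CPM (log2-fold change -0.90, edgeR adjusted p = 4.67e-11). CLCF1, which like LIF signals through IL6ST, fell (-1.47), as did KITLG, the ligand of KIT (-1.29). IL6 and IL11, which both signal through IL6ST, thus differed in opposite directions.

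Among 38 other chemokines, 4 passed the filter, of which 3 rose and 1 fell, where 77.8% of all genes tested passed the test in either direction. XCL1, a chemokine for XCR1-bearing dendritic cells, rose from 1.78 ± 0.435 to 9.73 ± 1.44 CPM (log2-fold change 2.45, edgeR adjusted p = 1.83e-09) and CCL28, a mucosal chemokine, from 2.58 ± 0.285 to 10.7 ± 0.634 CPM (2.06, adjusted p = 7.21e-10). CCL20, the ligand of CCR6, stood at 14.7, 15.3 and 17.6 CPM in normoxia and rose to 26.2, 23.1 and 29.4 CPM in hypoxia (log2-fold change 0.73, edgeR adjusted p = 4.24e-06). CXCL16 fell from 103 ± 6.11 to 74.0 ± 2.01 CPM (log2-fold change -0.47, edgeR adjusted p = 8.18e-07). The platelet chemokines PF4 and PPBP, the latter a CXCR2 ligand that also attracts neutrophils, whose genes lie between CXCL1 and CXCL5, had at most 1 count in any library.

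Of 20 cytokines and receptors known to induce these genes in epithelium, 13 passed the filter, of which 6 rose, 5 fell and 2 did not pass the test, with a median log2-fold change of 0.01, and 77.8% of all genes tested passed. The ligands IL1A, IL1B and TNF fell, and IL17C rose. IL1A fell from 344, 358 and 357 CPM to 209.7, 213 and 225 CPM (log2-fold change -0.71, edgeR adjusted p = 8.19e-10) and IL1B from 203, 216 and 226 CPM to 98.0, 88.6 and 98.4 CPM (-1.18, adjusted p = 8.94e-12). TNF fell from 22.0, 22.4 and 18.1 CPM to 5.57, 7.74 and 8.41 CPM (log2-fold change -1.52, edgeR adjusted p = 1.35e-08). Every hypoxia library of these 3 genes lay below every normoxia library. IL17C, an epithelial IL-17, rose from 0.626 ± 0.226 to 2.83 ± 0.160 CPM (log2-fold change 2.19), together with its receptor chain IL17RE (0.95). IL1RAP, the shared chain of the IL-1 receptors, rose from 33.1 ± 0.687 to 73.1 ± 7.97 CPM (log2-fold change 1.14, edgeR adjusted p = 1.99e-10). Of the Toll-like receptors TLR3, a sensor of double-stranded RNA, rose (2.03), as did TLR2, a sensor of bacterial lipoproteins named after its value was seen (0.58), and TLR4, the sensor of lipopolysaccharide, fell (-0.51).

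All 21 transcription factors of the NF-kB, C/EBP, AP-1 and related families passed the filter, of which 11 rose, 6 fell and 4 did not pass the test, with a median log2-fold change of 0.19, beside the 77.8% of all genes tested that passed. AP-1 members moved in opposite directions. FOS rose from 1.93 ± 0.0573 to 22.5 ± 7.04 CPM (log2-fold change 3.55, edgeR adjusted p = 7.26e-11) and FOSL2 from 75.4 ± 11.5 to 377 ± 29.1 CPM (2.32, adjusted p = 2.56e-13). JUN (1.90) and JUNB (1.57) rose as well, whereas FOSL1 fell from 633 ± 77.5 to 194 ± 14.4 CPM (log2-fold change -1.70, edgeR adjusted p = 2.52e-12). The NF-kB family also went both ways. NFKBIZ, a nuclear co-regulator of IL6 and CXCL genes, fell from 58.5 ± 1.44 to 25.1 ± 1.60 CPM (log2-fold change -1.22, edgeR adjusted p = 2.27e-11). NFKB1, the p105/p50 subunit, fell from 148 ± 4.53 to 81.3 ± 3.97 CPM (-0.86, adjusted p = 1.92e-10), and RELB fell by less (-0.32). BCL3, a nuclear co-regulator that binds p50 and p52, rose (log2-fold change 1.45, edgeR adjusted p = 6.42e-11), a larger change than either NFKBIZ or NFKB1 showed, and REL rose (0.39). Of the C/EBP factors CEBPD fell (-0.45), while CEBPA (0.98) and CEBPB (0.17) rose, the last a call that was lost without the filter and without hypoxia replicate 3. BCL3, REL, RELB, CEBPA and CEBPB were named after their values were seen. RELA, the p65 subunit, named after its value was seen, had a log2-fold change of 0.08 (edgeR adjusted p = 0.171), which became 0.16 and passed when only genes with 10 counts or more in each library were kept, a filter that moved the median of all genes by 0.077. These are mRNA levels, and the activity of the factors was not measured.

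The 15 genes of mRNA decay and stability all passed the filter, of which 6 rose, 7 fell and 2 did not pass the test, with a median log2-fold change of -0.10, beside the same 77.8% of all genes tested. Of the ZFP36 family, which binds AU-rich elements and promotes decay, ZFP36L1 rose from 266 ± 9.02 to 505 ± 30.4 CPM (log2-fold change 0.93, edgeR adjusted p = 7.74e-11) and ZFP36L2 fell from 25.4 ± 2.58 to 8.70 ± 1.69 CPM (-1.55, adjusted p = 3.89e-09). ELAVL1 (HuR), which stabilises such mRNAs, fell from 162 ± 8.35 to 94.4 ± 3.81 CPM (log2-fold change -0.78, edgeR adjusted p = 9.44e-10). ZFP36 itself, named after its value was seen, had a log2-fold change of 0.22 (edgeR adjusted p = 0.0455), a call that was lost with DESeq2's Wald test, without the filter, with the replicate number as a block, and without hypoxia replicate 2 or 3 or normoxia replicate 2 or 3, with values from 0.17 to 0.30 over all alternatives. HNRNPD (AUF1; -0.82) and KHSRP (-0.67), which bind the same elements, fell too. ARID5A, a protein that stabilises IL6 mRNA, rose from 4.21 ± 0.0816 to 9.49 ± 1.15 CPM (log2-fold change 1.17, edgeR adjusted p = 6.11e-07), while IL6 itself was lower. The exonuclease XRN1 (0.99) and the translational repressor TIA1 (0.88) rose.

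The genes next to the 10 were followed as a comparison, chosen by their position beside genes that were picked with the contrast known. Of 53 neighbours, 33 passed the filter, of which 9 rose, 14 fell and 10 did not pass the test, with a median log2-fold change of -0.07, where 77.8% of all genes tested passed. The chemokine cluster runs in the order CXCL8, CXCL6, PF4V1, CXCL1, PF4, PPBP, CXCL5, CXCL3 and CXCL2, so CXCL6 sits between CXCL8 and CXCL1, which were both lower in hypoxia. Beyond CXCL2 lie MTHFD2L and then EPGN, EREG, AREG and BTC, which encode ligands of the EGF receptor. EREG (epiregulin) stood at 564, 602 and 524 CPM in normoxia and fell to 101, 86.7 and 98.5 CPM in hypoxia (log2-fold change -2.56, SE 0.068; edgeR adjusted p = 7.78e-15). EPGN (epigen) fell from 14.2, 15.0 and 11.4 CPM to 1.24, 1.29 and 1.2 CPM (log2-fold change -3.44, SE 0.16; edgeR adjusted p = 4.62e-12). AREG (amphiregulin) fell from 35.8, 37.9 and 34.3 CPM to 10.2, 10.5 and 8.63 CPM (log2-fold change -1.88, SE 0.092; edgeR adjusted p = 6.08e-12). The conditions were apart for all 3, while BTC (betacellulin), the last in the row and named after its value was seen, had a log2-fold change of -0.27 (SE 0.17; edgeR adjusted p = 0.148).

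**Figure D2:**
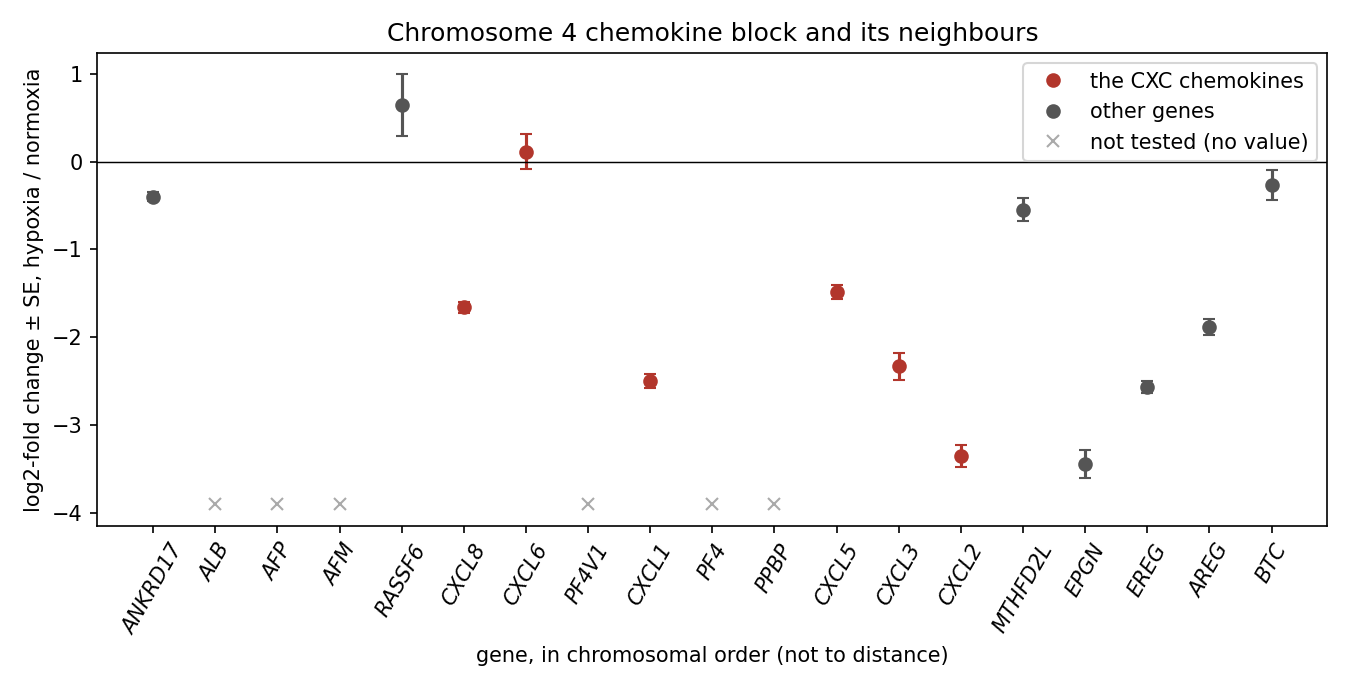
Log2-fold change ± SE (hypoxia over normoxia) of the genes from ANKRD17 to BTC in their order on chromosome 4, with the 6 chemokines in red, other genes in grey and genes without a value as crosses at the foot. CXCL6 at 0.11 stands between CXCL8 at -1.66 and CXCL1 at -2.50, and the run of low values goes on past CXCL2 to EPGN, EREG and AREG, interrupted by MTHFD2L at -0.55.

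Around CSF2, CSF3 and IL6 the neighbours went both ways. SLC22A4, a transporter near CSF2, fell (log2-fold change -1.57, edgeR adjusted p = 3.84e-08), whereas P4HA2, a collagen prolyl hydroxylase near it, rose (0.98, adjusted p = 5.79e-11). Near CSF3, GSDMB (gasdermin B) rose from 1.67 ± 0.723 to 13.7 ± 0.958 CPM (log2-fold change 3.00, edgeR adjusted p = 3.37e-10), the largest rise of the 33 neighbours tested, whereas PSMD3, a proteasome subunit (-1.11, adjusted p = 1.43e-11), and MED24, a Mediator subunit (-0.69), fell. On the sides of IL6, DNAH11 (2.18) and GPNMB (1.89) rose, and NUP42 (-0.86, adjusted p = 2.55e-09) and FAM126A (-0.32) fell. The values of PSMD3, MED24, NUP42 and FAM126A were known before they were named.

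The genes whose levels over the 6 libraries were most like those of each of the 10 were found by the root mean square difference in log2 CPM centred on each gene's mean. EREG, the neighbour described above, was nearest to CXCL1, with a difference of 0.057, followed by NOP56, a nucleolar protein (0.059), and GPAT3 (0.060). EPGN and SLC7A11, the cystine transporter, were among the 3 nearest of both CSF3 (0.19 and 0.22) and CXCL2 (0.11 each), the nearest of CSF3 was NAV3 (0.17), and the third for CXCL2 was POLR1G (0.13). ZFP36L2 was nearest to CSF2 (0.063), before EEF1AKMT4 (0.068) and TMEM64 (0.074), and RBM3, a cold-inducible RNA-binding protein, to CXCL8 (0.033), with RFC3 (0.038) and ALYREF (0.039) next. The nearest genes of IL6 were SNHG15 (0.10), ZNF556 (0.10) and RRS1 (0.12), and those of CXCL5 were SH2D5 (0.039), DSCAM (0.043) and MTARC1 (0.055). For CXCL3 they were DPH2 (0.075), TMEM201 (0.089) and EXOSC6 (0.090). CSF1 had TJP1 (0.017), CASKIN2 (0.021) and RPS6KA1 (0.022), and CXCL6 had CCDC82 (0.077), PUS3 (0.080) and OTUB2 (0.092). As the libraries fall into 2 conditions, genes that are alike by this measure have similar log2-fold changes, -2.56 for EREG and -2.50 for CXCL1.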

How the data were processed

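RNA-seq counts and FPKM of 21776 genes in 6 libraries (SMARTER mRNA-Seq kit, RNA from SCC25) were deposited by the authors. The counts are whole reads per gene without normalization. The deposited FPKM of all 10 genes could be recomputed from count, gene length and library total to within 0.1%. The aligner, counting tool, annotation and use of strand are not given in the sources used here. The submitters' processing notes name GRCm38 and mm10, both mouse builds, although the gene names are human, so no coordinates were taken from the count tables. The labels name SCC25, while a legend of the study names SCC9.

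Counts were fitted with edgeR 4.0.16 (TMM, filterByExpr, quasi-likelihood F test, R 4.3.3) on all 6 libraries, and p-values were adjusted by Benjamini-Hochberg over the 14255 genes that passed, at a threshold of 0.05. DESeq2 1.42.0, other filters, a replicate block, each library left out and FPKM on the log2(value + pseudocount) scale with pseudocounts of 1 and 0.1 were the alternatives. On simulated counts with 200 changed genes of 14083, all 200 were found with 5.21% false calls. The simulation gave every gene the same dispersion and held no small changes, whereas most genes passed in the real data. Its rates therefore need not hold for the real data. At 29637189 to 37278703 counts a library, 3 counts correspond to at most 0.101 CPM on these totals before TMM scaling. No 2 libraries of a condition were the same library deposited again: chi-square per gene between replicates was 5.11 or more.

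The 10 genes, the other lists and the motifs were chosen with earlier results of these data known. The text names all 10 genes, the tested receptors, up to 4 genes with the largest rise and the largest fall of each other list (adjusted p under 0.05, mean log2 CPM of at least 0), the 3 nearest genes by likeness, VEGFA and CA9. Neighbours were the 5 nearest protein-coding genes on each side and those inside the chemokine block, by order in the RefSeq table. Promoters are from RefSeq, GRCh38.p14, and shared windows of 50 bases and exon overlaps from GENCODE 29. The Glu-Leu-Arg motif of the chemokine proteins was not examined.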

Additional observations from a re-analysis of the deposited data

How the results depend on the processing

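For the 10 genes the median log2-fold change lay between -2.09 and -1.91 under every alternative on counts, the libraries left out in turn included. On FPKM it was -1.92 with a pseudocount of 0.1 and -1.78 with a pseudocount of 1, which compresses low levels. The 9 lower genes kept their direction under all alternatives run, and CXCL6 crossed 0. Of 14255 genes tested, 11090 passed with edgeR's TMM, 11096 with DESeq2 size factors and 10859 with DESeq2's Wald test. Other filters changed the genes tested: 11920 of 21776 passed without one, 9967 of 12665 where each library had to hold 10 counts, and 10669 to 11390 of 14435 to 14728 with each library left out. With the replicate number as a block, 10875 of 14255 genes passed. Deviations of same-numbered libraries had correlations of 0.005, -0.193 and -0.052. The highest value was 0.17, for hypoxia replicate 2 and normoxia replicate 3, and hypoxia replicate 1 correlated best with normoxia replicate 2 (0.137). With 3 libraries per condition, centred on their mean, values this small cannot decide whether the numbers pair the libraries. Of the 97 other genes listed, 84 kept their call under every alternative and 13 did not, among them IL6ST, RELA and BTC; the cause was not tested. Genes such as CXCR2 and CSF3R, with a few counts, are not measurable at this depth.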
